A study of Mus musculus with 4 samples.

Results

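The genes described here are 9 markers and regulators of the primitive endoderm, namely Gata4, Gata6, Sox17, Sox7, Dab2, Pdgfra, Foxa2, Hnf4a and Amn. They were chosen by name with earlier results of these libraries known, and they are 9 of the 24594 genes of the count table. The data are poly(A) transcriptomes of mouse embryonic stem cells (mESCs) of the 129S6/SvEvTac line without treatment, sequenced as 2 wild-type (WT) and 2 Snf2l knockout libraries. Snf2l, also named Smarca1, encodes SNF2L, which is one of the ISWI chromatin-remodeling ATPases. The methods describe growth in serum and leukemia inhibitory factor on gelatin, and 1 Cas9-edited clone per deleted genotype, so genotype and clone cannot be told apart. The methods call the RNA-seq replicates independent, without saying whether the 2 libraries of a genotype came from separate cultures, and the labels call them duplicates, so p-values measure only the spread between these libraries.

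The primitive endoderm is the epithelium that separates from the pluripotent epiblast in the late blastocyst and later forms the visceral and parietal endoderm of the yolk sacs. Fibroblast growth factor signals favour it, the transcription factor GATA6 starts it, and NANOG opposes GATA6 in the epiblast. mESCs come from the epiblast, and cultures in serum are known to hold a small number of cells with primitive endoderm transcripts. In bulk RNA, more cells of such a kind and more RNA per cell cannot be told apart.

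Library totals ranged from 13771642 to 15608803 counts, and 17222 to 17422 genes were detected per library. Levels are given as counts per 1e6 mapped counts (CPM) on library sizes scaled by TMM, a method that equalizes libraries on the genes that differ least, and as mean ± SD over the 2 libraries of a genotype. The targeted gene Smarca1 had 620 and 626 counts in WT against 37 and 31 in knockout cells. The fitted change of Smarca1 was -4.30 on the log2 scale (SE 0.159), so the labels and the target agree in all 4 libraries. As pluripotency markers, Pou5f1 stood at 1262 ± 105 CPM in WT (n = 2) and 1319 ± 62.8 in the knockout (n = 2), and Nanog at 464 ± 15.9 and 465 ± 12.5 CPM. Genes of chromosome 8 had a median log2 change of -0.51 relative to all tested genes in the knockout. None of the 9 endoderm genes lies there, and the medians of the chromosomes that carry them lay between -0.071 (chromosome 14) and 0.090 (chromosome 1).

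The 9 genes were scarce transcripts in these cells. Together they took 20.4 and 18.7 CPM in the WT libraries and 30.5 and 30.6 CPM in the knockout libraries. Both knockout libraries thus lay above both WT libraries in this sum, in which Dab2 and Gata4 had the highest levels. From WT to knockout the mean level went from 8.38 to 11.9 CPM for Dab2, from 1.57 to 3.93 CPM for Pdgfra and from 3.04 to 5.12 CPM for Gata4. Foxa2 had too few counts for a fit, with 4 and 2 counts in WT against 6 and 7 in knockout cells. Sox17 and Amn each had 9 counts in WT replicate 1 and 12 in WT replicate 2, so that their values rest on few reads. The other 8 genes passed edgeR's expression filter, which lay at 0.653 CPM, in both WT and both knockout libraries.

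**Figure D1:**
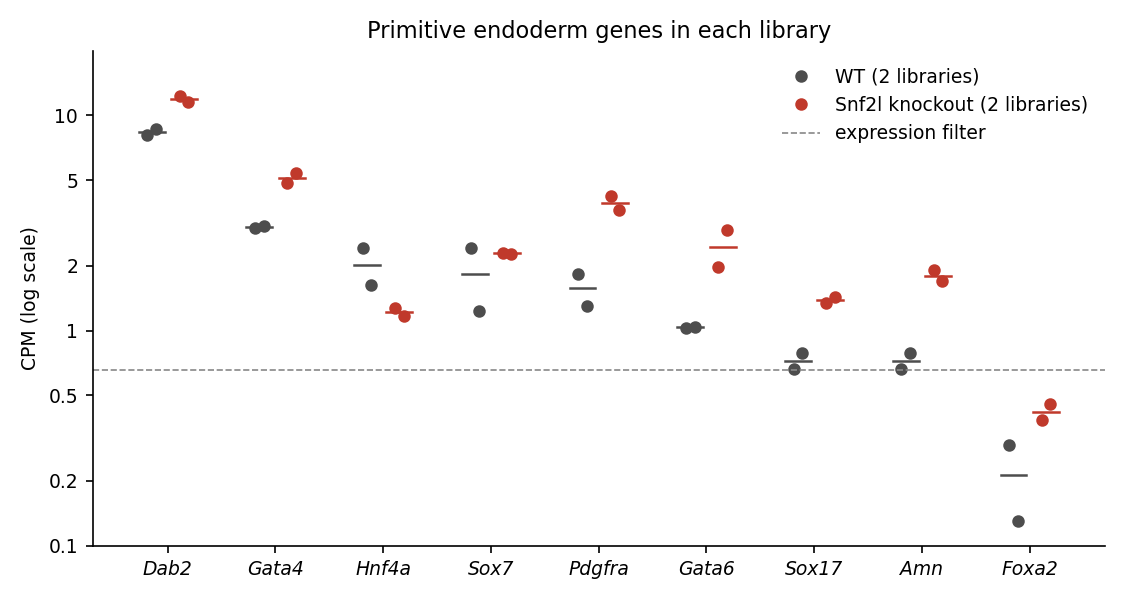
CPM of the 9 primitive endoderm genes on a log scale, with a point for each library, a short line for the mean of each genotype and a dashed line for the expression filter at 0.653 CPM. Both knockout libraries lie above both WT libraries for 7 of the 9 genes, the groups overlap for Sox7, and Hnf4a is lower in the knockout. Of the 13840 tested genes, 25.2% also have both knockout libraries above both WT libraries.

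Transcript levels can be compared between genes only per length, in CPM per kb. On that scale the 9 genes ran from 0.0895 (Foxa2) to 1.14 (Dab2) in WT, and all 9 lay below the median of the 13840 tested genes, 5.75 CPM per kb. Dab2 was at the 21.4th percentile of tested genes and Gata4 at the 16.6th. Sox17, Gata6 and Pdgfra were between the 2.77th and the 3.10th percentile, and Foxa2 fell at the 0.845th.

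The order in WT was Dab2, Gata4, Sox7, Hnf4a, Amn, Sox17, Gata6, Pdgfra and Foxa2. Neighbours in that order whose library ranges overlapped were Sox7 and Hnf4a, Hnf4a and Amn, Sox17 and Gata6, and Gata6 and Pdgfra. In the knockout Amn stood in rank 3 at 0.978 ± 0.0845 CPM per kb (n = 2), against rank 5 at 0.392 ± 0.0467 in WT (n = 2). Pdgfra stood in rank 5 at 0.392 ± 0.0397 CPM per kb against rank 8 at 0.157 ± 0.0375, and Hnf4a moved from rank 4 to rank 8. In the knockout order the ranges overlapped between Pdgfra and Gata6 and between Gata6 and Sox17.

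**Figure D2:**
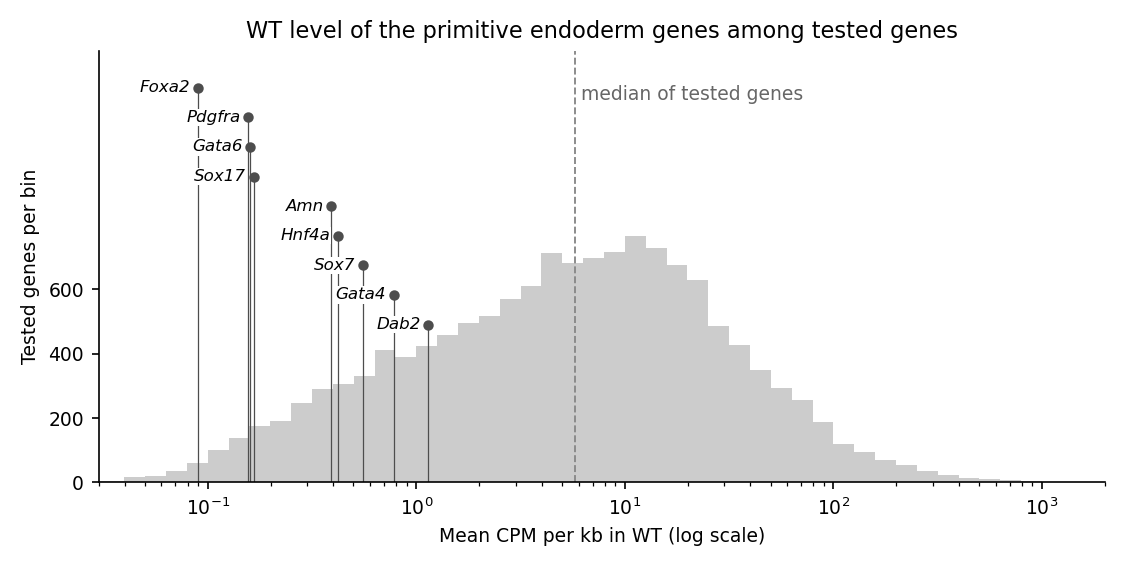
Histogram of the mean WT level of the 13840 tested genes in CPM per kb on a log scale, with the level of each of the 9 primitive endoderm genes marked by a line and a point. All 9 points lie left of the dashed median at 5.75 CPM per kb, and Foxa2, which was not itself tested, lies farthest left.

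Promoter sequences are shown for Dab2, Pdgfra and Amn, the genes among the 9 that code for surface or endocytic proteins and that were higher in the knockout. Each is the 250 bases before a RefSeq transcript start in GRCm38.p6, read 5′ to 3′ on the plus strand. Capitals mark GATAA, the core recognized by GATA factors, which was searched on both strands (as GATAA and TTATC).
Dab2, chr15:6299539-6299788: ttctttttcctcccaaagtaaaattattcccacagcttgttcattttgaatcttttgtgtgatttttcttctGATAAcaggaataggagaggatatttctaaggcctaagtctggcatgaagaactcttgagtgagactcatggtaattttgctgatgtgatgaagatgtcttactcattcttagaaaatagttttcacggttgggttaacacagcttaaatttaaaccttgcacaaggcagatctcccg
Pdgfra, chr5:75152001-75152250: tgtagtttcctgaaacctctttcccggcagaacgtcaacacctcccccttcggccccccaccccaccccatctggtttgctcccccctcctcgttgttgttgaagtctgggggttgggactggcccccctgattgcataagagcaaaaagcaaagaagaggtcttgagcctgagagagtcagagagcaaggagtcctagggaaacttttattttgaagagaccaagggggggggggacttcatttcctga
Amn, chr12:111270846-111271095: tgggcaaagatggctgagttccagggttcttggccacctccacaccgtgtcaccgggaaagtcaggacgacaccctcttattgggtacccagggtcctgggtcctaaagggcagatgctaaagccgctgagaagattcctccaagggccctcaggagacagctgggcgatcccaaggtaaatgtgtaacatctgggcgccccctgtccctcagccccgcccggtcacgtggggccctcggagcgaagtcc

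The Dab2 window held 1 GATAA, 178 bases before the start, and the windows of Pdgfra and Amn held none. Of 32851 mouse promoter windows of this length, 22.6% held GATAA on either strand. A second Dab2 start farther downstream had none in its window. The Pdgfra window begins at 75152001, inside the annotated gene, which starts at 75151322. The bases before that outermost Pdgfra start were not searched. Base composition differed among the 3 windows, with 36.8% G and C and 2 CpG dinucleotides for Dab2, 54.4% and 4 for Pdgfra, and 61.2% and 11 for Amn, against medians of 52.4% and 6 over all windows. The core ACAAT of SOX factors (searched with ATTGT) was in none of the 3 and in 27.7% of all windows. Hnf4a, the gene that was lower, had 1 GATAA 51 bases and 1 ACAAT 134 bases before its upstream start, and neither core in the window of its downstream start. Foxa2 had 1 GATAA 182 bases before one of its starts, none in its other windows, and no ACAAT. RefSeq windows were matched for 5 of the 9 genes, which are Dab2, Pdgfra, Amn, Hnf4a and Foxa2. Gata4, Gata6, Sox17 and Sox7 are named only.

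Gata6 (chromosome 18, 11052510 to 11085636 in GRCm38) codes for the factor at the head of the primitive endoderm programme. The WT libraries held 14 and 16 counts of it and the knockout libraries held 31 and 45. All 4 counts are small, yet the lower knockout library still lay above the higher WT library. The level was 1.04 ± 0.0109 CPM in WT (n = 2) against 2.45 ± 0.673 CPM with Snf2l knocked out (n = 2). The fitted log2 change was 1.23 (SE 0.319), and the ratio of summed counts was 2.36 with an exact 95% binomial interval of 1.53 to 3.73, which covers counting error only. Without knockout replicate 2, the higher of the pair, the log2 change was 0.93.

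Gata4 (chromosome 14, 63198914 to 63271712) codes for a second GATA factor that acts with and after GATA6 in this lineage. Its counts were 41 and 47 in WT against 76 and 83 in knockout cells. The groups were well apart, at 3.04 ± 0.0386 CPM in WT (n = 2) against 5.12 ± 0.394 CPM with Snf2l knocked out (n = 2), with a fitted log2 change of 0.75 (SE 0.199). Gata4 was the more abundant of the GATA pair in every library. Per length, it stood 4.88 and 4.90 times above Gata6 in the WT libraries and 4.09 and 3.07 times above it in the knockout libraries.

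Sox17 (chromosome 1, 4490928 to 4497426) and Sox7 (chromosome 14, 63943706 to 63950732) code for SOX factors of one subfamily that follow the GATA factors in endoderm. Sox17 counted 9 and 12 reads in WT and 21 and 22 in the knockout, or 0.722 ± 0.0861 against 1.39 ± 0.0658 CPM (n = 2 each). Its groups did not overlap and its log2 change was 0.92 (SE 0.360), but it did not pass the test across all genes. The ratio of its summed counts was 1.91 (exact 95% binomial interval 1.11 to 3.38).

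Sox7 was the gene whose groups overlapped. WT replicate 1 had 33 counts and WT replicate 2 had 19, while the knockout libraries had 36 and 35. After scaling, WT replicate 1 (2.42 CPM) lay above both knockout libraries (2.29 and 2.28 CPM) and WT replicate 2 lay well below them (1.24 CPM). Its log2 change was 0.34 (SE 0.309), and this value went from -0.084 without WT replicate 2 to 0.88 without WT replicate 1. Sox7 and Gata4 lie on the same chromosome with 671994 bp between them, and a change was called for Gata4 and not for Sox7. The difference between the changes of these genes was not tested.

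Foxa2 (chromosome 2, 148042877 to 148046969) and Hnf4a (chromosome 2, 163506811 to 163572907) code for factors that act later, in visceral endoderm and in endoderm of the embryo. Foxa2 was at 0.212 ± 0.116 CPM in WT against 0.419 ± 0.0517 CPM in knockout cells (n = 2 each), close to the 0.191 to 0.220 CPM that 3 counts amount to in these libraries. The ratio of its summed counts was 2.02, with an exact 95% binomial interval from 0.716 to 6.48, so that a difference was not detectable at this depth.

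Hnf4a went the other way. It had 33 and 25 counts in WT against 20 and 18 in knockout cells, at 2.03 ± 0.561 and 1.22 ± 0.0732 CPM (n = 2 each). The knockout values were both under the WT values, with a log2 change of -0.71 (SE 0.315), and Hnf4a did not pass the test. The change was -0.41 without WT replicate 1, the library with the higher count.

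Pdgfra (chromosome 5, 75151322 to 75198206) codes for the receptor of platelet-derived growth factor A, a surface marker by which primitive endoderm cells are commonly sorted. Its counts were 25 and 20 in WT against 66 and 56 in knockout cells. Each knockout library held over 2 times the count of either WT library, at 3.93 ± 0.398 CPM against 1.57 ± 0.376 CPM (n = 2 each). The fitted log2 change of Pdgfra was 1.33 (SE 0.256), the largest among the 8 genes fitted, followed by those of Amn and Gata6. The intervals of these 3 changes at 1 SE overlap.

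Dab2 (chromosome 15, 6299788 to 6440715) codes for a cargo adaptor of clathrin-mediated endocytosis that is needed for the primitive endoderm to form an ordered layer. As the most abundant of the 9, it had 110 and 133 counts in WT against 193 and 178 in knockout cells. The level of Dab2 was 8.38 ± 0.422 CPM in WT and 11.9 ± 0.508 CPM without SNF2L (n = 2 each), and its log2 change of 0.51 (SE 0.145) had the smallest SE of the 8.

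Amn (chromosome 12, 111271096 to 111276426) codes for amnionless, which anchors the endocytic receptor cubilin in the membrane of visceral endoderm and absorptive epithelia. Its counts were 9 and 12 in WT against 30 and 26 in knockout cells, which is 0.722 ± 0.0861 against 1.80 ± 0.156 CPM (n = 2 each). Amn thus had the WT counts of Sox17 and more counts in the knockout. The log2 change was 1.30 (SE 0.342), and the ratio of summed counts was 2.48 (exact 95% binomial interval 1.48 to 4.32). Per length, Dab2 exceeded Amn 2.93-fold in WT (SD 0.202, n = 2) and 1.67-fold in the knockout (SD 0.0733, n = 2).

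**Figure D3:**
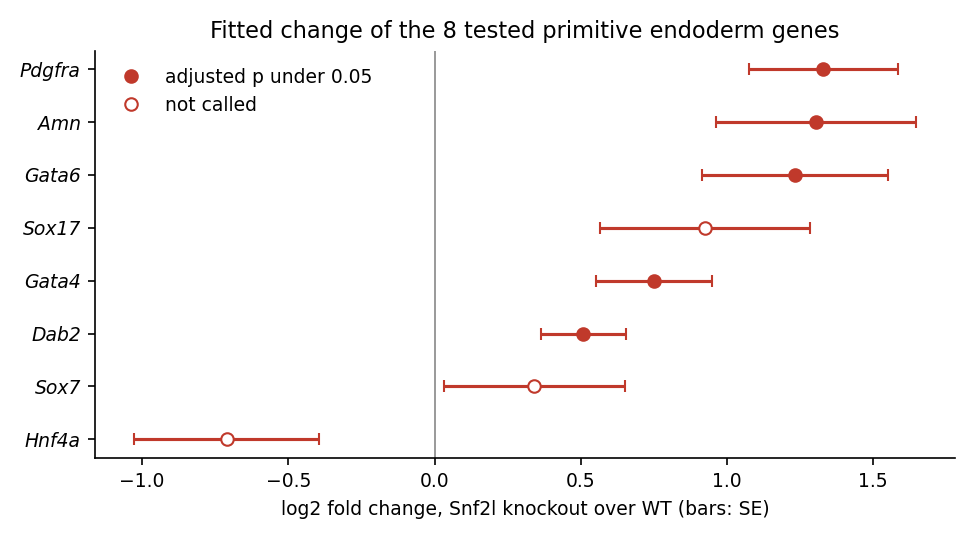
Fitted log2 fold change of the 8 tested genes, knockout over WT, with bars of 1 SE, where filled points passed an adjusted p of 0.05 over all genes. The points run from Hnf4a at -0.71 to Pdgfra at 1.33, and the 5 filled points are Dab2, Gata4, Gata6, Amn and Pdgfra.

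Of the 8 genes fitted, 5 were called higher at an adjusted p under 0.05 by edgeR's quasi-likelihood test with Benjamini-Hochberg adjustment over all 13840 genes, and 0 lower. Counted at an unadjusted p under 0.05 these were 6 higher and 1 lower (Hnf4a). Over all tested genes the share called at an adjusted p under 0.05 was 9.21% in either direction, 4.0% higher and 5.21% lower. The share at an unadjusted p under 0.05 was not computed, so the unadjusted counts have no such background. The genes were chosen from this same contrast, so the count is a description. By the study's stricter rule, an adjusted p under 0.01 and an absolute log2 change over 1, only Pdgfra was called higher, where 0.571% of tested genes were. By that rule 0 of the 8 were called with DESeq2, 0 without WT replicate 2, 2 without knockout replicate 1 and 3 with the replicate block. Among all tested genes the replicate block called 223 by that rule in either direction, against 137 in the main fit. In 6 of the 8 fitted genes both knockout libraries exceeded both WT libraries, as they did in 25.2% of tested genes.

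The number of calls depended on single libraries and on the tool. With DESeq2 only Pdgfra was called higher and 0 lower, where 2.30% of the 13035 genes given an adjusted p were called higher. Leaving out WT replicate 1 kept Gata6 and Pdgfra, and leaving out WT replicate 2 kept Pdgfra. Without knockout replicate 1 the calls were Gata4, Gata6 and Pdgfra, and without knockout replicate 2 they were Amn, Dab2 and Pdgfra. At an adjusted p under 0.05 Pdgfra was therefore called in each of these 5 fits, and the fitted changes of Gata4, Gata6, Sox17, Dab2, Pdgfra and Amn stayed positive in all of them.

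Exons of some of these genes share bases with other annotated transcripts (GENCODE M21), and the sources used here do not state whether counting used the strand. Pdgfra shares 456 exon bases with Gm42802 and 166 with Gm42803, Sox17 shares 804 with Gm37587, Dab2 211 with Gm18888, and Gata6 93 with 1010001N08Rik. All of these partners lie on the opposite strand. The microRNA gene Mir7025 shares 30 exon bases of Pdgfra on the same strand and had 0 counts in the table. For Gata4, Sox7, Foxa2, Hnf4a and Amn no exon base was shared with an antisense gene.

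The genes beside the 8 fitted loci were compared next, since position did not enter the choice. Among the 44 nearest tested genes (3 on either side where there were that many), the log2 change ran from -0.42 to 1.76 with a median of -0.047, and 4 were called, all higher, against 9.21% of all genes in either direction. Pdgfra was the only fitted locus with more than 1 called neighbour, the receptor genes Kit and Kdr, which follow it on chromosome 5. Kit, the receptor of stem cell factor, had 842 and 835 counts in WT against 1280 and 1135 in knockout cells, a log2 change of 0.42 (SE 0.102, edgeR adjusted p = 0.0169). Kdr, a receptor of vascular endothelial growth factor, had 17 counts in each WT library and 63 and 43 in the knockout, a log2 change of 1.53 (SE 0.291, edgeR adjusted p = 0.00343). The gene Chic2 on the other side of Pdgfra had a log2 change of -0.014 (SE 0.119). The remaining calls were Gdap1l1 near Hnf4a, at 1.42 (SE 0.224), and Exoc3l4 near Amn, at 1.76 (SE 0.517). Exoc3l4 had 3 and 4 counts in WT against 14 and 12 in knockout cells. It passed the expression filter only through the knockout libraries, where it was high, so its call has little weight among the 4. Kit was not called without WT replicate 2 (log2 change 0.33), and Exoc3l4 was not called when any 1 library was left out (1.65 to 1.89).

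Around the 9 genes, 60 further genes of the endoderm programme were grouped by role in 7 lists, likewise chosen with earlier results known. Of these, 51 were fitted, 10 were called higher, 4 lower and 37 not called, beside 4.0% higher and 5.21% lower over all tested genes. With DESeq2 the genes Lamb1, Nid1, Pdgfb and Sox18 among these 14 were not called. Their median log2 change was 0.21, against 0.00020 over all tested genes, and 38 of the 51 values were positive.

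Upstream of GATA6, the list of signal input held Fgf4, its receptors Fgfr1 to Fgfr4, the adaptor Grb2 and the opposing factor Nanog. Of its 7 genes 0 were called higher in the main edgeR fit, 0 in DESeq2 and 0 at an unadjusted p under 0.05. With the replicate block 1 was called higher. Fgfr1, on chromosome 8, was called lower at -0.58 (SE 0.0922, edgeR adjusted p = 0.000987). At an unadjusted p under 0.05, 2 of the 7 were lower. With the chromosome 8 shift taken out Fgfr1 was at -0.074. Nanog had a log2 change of 0.00056 (SE 0.0823). Per length, Nanog exceeded Gata6 1279 and 1323 times in the WT libraries and 696 and 452 times in the knockout libraries, and exceeded Gata4 266 ± 5.72 times in WT and 159 ± 16.4 times in the knockout (n = 2 each).

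Of the 5 other PDGF genes, 3 were called higher, and these were ligands. The ligand gene Pdgfd was not called, at a log2 change of -0.034 (SE 0.418) from 10 and 11 counts in WT against 10 and 12 in knockout cells. Pdgfa, which codes for a ligand of PDGFRA, had 352 and 417 counts in WT against 612 and 611 in knockout cells. Its log2 change was 0.57 (SE 0.106, edgeR adjusted p = 0.00293). Pdgfc changed by 0.47 (SE 0.0974, adjusted p = 0.00596 in edgeR) and Pdgfb by 0.71 (SE 0.210, adjusted p = 0.0489 in edgeR). Pdgfrb, the sister receptor, was at 0.89 (SE 0.276) with an adjusted p of 0.0582 in edgeR. It was called with scaling by total counts only (0.91), with at least 10 counts in every library (0.89) and with the replicate block. The same held without WT replicate 1 (1.17) and without knockout replicate 2 (1.08). Receptor Pdgfra and ligand Pdgfa thus stood higher in the same libraries. The call of Pdgfc was lost without WT replicate 2 (log2 change 0.44), and that of Pdgfb without either WT replicate or knockout replicate 2 (0.59 to 0.82 over the 4 fits).

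The partners of Amn and Dab2 in endocytosis, Cubn, Lrp2 and Lrpap1, gave 0 calls at an adjusted p under 0.05 in edgeR and 0 in DESeq2, with 2 higher at an unadjusted p under 0.05. Cubn, which codes for cubilin, had 80 and 62 counts in WT against 164 and 83 in knockout cells. Its knockout libraries differed from each other by more than the genotype means did, with a log2 change of 0.69 (SE 0.267), and it was called with the replicate block, without WT replicate 1 (0.97) and without knockout replicate 2 (1.09). Lrpap1, the chaperone of these receptors and the most abundant of the list, was at 0.30 (SE 0.0930). It was called with upper-quartile scaling (0.33), with total counts only (0.31), with the replicate block and without knockout replicate 1 (0.31).

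Basement membrane genes, whose products primitive endoderm lays down, gave 4 calls among 11 fitted, all higher. Col4a2 changed by 0.86 (SE 0.135), Col4a1 by 0.50 (SE 0.10), Nid1 by 0.42 (SE 0.13) and Lamb1 by 0.33 (SE 0.0973), with edgeR adjusted p-values from 0.000954 to 0.0498. All 11 values were positive, with a median of 0.22. The neighbours Col4a1 and Col4a2 lie on chromosome 8 and stood at 1.01 and 1.36 with its shift taken out. In this list replicate 1 exceeded replicate 2 within each genotype, for 9 of 11 genes in WT (median log2 ratio 0.28) and 11 of 11 in the knockout (0.26), while the median over all tested genes was near 0. With the replicate number as a block in the fit, 9 of the 11 were called higher. That fit called more genes everywhere, 3471 of 13840 in either direction against 1274 without the block. Nid1 was not called without WT replicate 2 or knockout replicate 1, nor Lamb1 without either WT replicate or knockout replicate 1, at log2 changes from 0.22 upwards. Over all 60 genes, leaving out WT replicate 2 took the calls higher from 10 to 6.

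The later programmes differed from list to list. Among parietal endoderm genes 3 of 7 fitted were called higher. These were the keratins Krt18, with 218 and 281 counts in WT against 620 and 650 in knockout cells, and Krt8, with log2 changes of 1.25 (SE 0.117) and 1.10 (SE 0.121), and the filament gene Vim at 0.65 (SE 0.0914). These 3 genes are also active in many other epithelial or mesenchymal cells. Thbd, a parietal endoderm gene that was not fitted, had 3 and 2 counts in WT against 11 and 9 in knockout cells, a ratio of summed counts of 3.73 (exact 95% binomial interval 1.36 to 12.7).

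Visceral endoderm genes gave 0 calls higher in the main edgeR fit or DESeq2 (1 at an unadjusted p under 0.05 and 1 with the replicate block). There was 1 call lower, Lefty1 at -0.67 (SE 0.122). Lefty1 was well expressed in the WT libraries, with 449 and 613 counts, at the 78.7th percentile of tested genes. Only 7 of the 14 could be fitted. Afp and Apoa4 had 0 counts in all 4 libraries, and Ttr, Apoa1 and Cer1 had at most 3 counts in any. Of 12 further endoderm regulators 11 were fitted, 0 were called higher in edgeR, in DESeq2 or at an unadjusted p under 0.05, and Sox18 (-1.32, SE 0.333) and Sall1 (-0.55, SE 0.0979) were called lower. At an unadjusted p under 0.05, 4 were lower, which adds Foxa1 (-1.05, SE 0.472) and Foxa3 (-0.68, SE 0.284), and these were not called. Sall1 lies on chromosome 8 and was at -0.049 with its shift taken out. Sox18 was not called without knockout replicate 1 (-0.97).

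**Figure D4:**
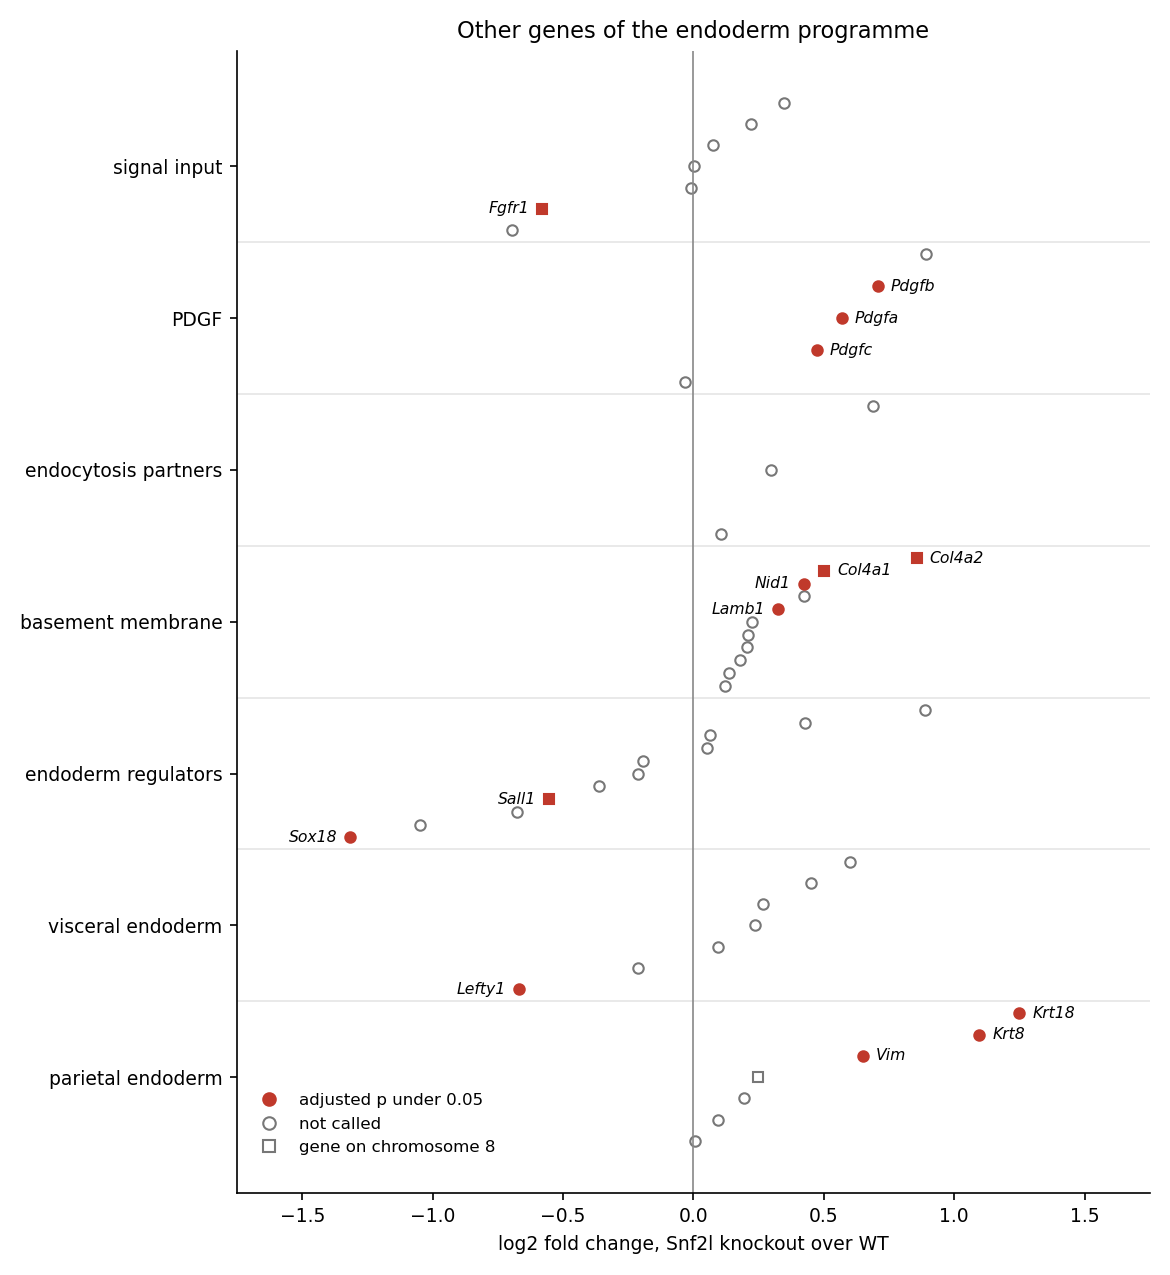
Fitted log2 fold change, knockout over WT, of the 51 fitted genes of 7 endoderm-programme lists, with a row for each list, filled points for an adjusted p under 0.05 and squares for genes on chromosome 8. The 10 filled points on the right fall in the PDGF, basement membrane and parietal endoderm lists, and the 4 on the left are Fgfr1, Sox18, Sall1 and Lefty1.

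Markers of other cell types that cultures can hold moved in both directions. Of 6 fitted fibroblast markers 2 were called higher, Col1a1 at 1.41 (SE 0.162) and Col3a1 at 2.44 (SE 0.407). Col3a1 had 4 and 8 counts in WT against 29 and 42 in knockout cells. It passed the expression filter only through the knockout libraries, where it was high, so its call has little weight. The summed fibroblast list stood at 18.7 and 14.8 CPM in WT against 28.7 and 28.8 CPM in knockout cells. Of the 6 values 5 were positive. Fbn1 went the other way, with 69 and 53 counts in WT against 51 and 34 in knockout cells (log2 change -0.63, SE 0.254, not called). Lum had 0 counts in every library and Prrx1, a defining mesenchymal factor, had 0 in both WT libraries and 4 and 2 in the knockout. Of 5 fitted mesendoderm and mesoderm markers 2 were called higher, Kdr and Hand1 (1.23, SE 0.283), while Mesp1 had at most 1 count in any library. The summed mesendoderm list was 7.57 and 6.85 CPM in WT against 10.8 and 11.1 CPM in knockout cells. Among trophoblast markers Hand1 alone was called, and Prl3d1 had 0 counts. All 4 fitted neural markers were called lower, from Pax6 at -1.18 (SE 0.134) and Nes at -1.06 (SE 0.109) to Tubb3 at -0.61 (SE 0.0995) and Sox1 at -0.59 (SE 0.168). Tubb3 and Sox1 lie on chromosome 8 and, with its shift taken out, were at -0.10 and -0.083 and not called, which leaves 2 of the 4 calls. Of the 10 pluripotency markers Klf4 was called higher (0.34, SE 0.0941) and Zfp42, on chromosome 8, lower (-0.60, SE 0.0829), and with the chromosome 8 shift taken out Zfp42 was at -0.092 and not called. Left-out libraries ended the calls of Hand1 (WT replicate 2), Klf4 (either WT replicate or knockout replicate 1) and Sox1 (either WT replicate or knockout replicate 2), and none of these 3 was called with DESeq2. The part of these cell types in the values of the 9 endoderm genes was not tested.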

How the data were processed

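Poly(A) RNA of 4 mESC libraries, processed as 1 batch, was analysed from 1 deposited table. The authors aligned reads to mm10 with QuasR and HISAT2 (bcl2fastq 2.17 is in the submitters' processing notes) and deposited raw, whole-number counts per Entrez gene of the UCSC Known Genes, without normalization, with a length in bp per gene. The strand setting of counting is not given in the sources used here. Of 24594 genes, 24570 (99.9%) were matched to RefSeq symbols and positions in GRCm38.

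Counts were filtered with filterByExpr (minimum count 10), scaled by TMM (factors 0.989 to 1.01) and tested with the legacy quasi-likelihood fit of edgeR 4.0.16 in R 4.3.3, with genotype as the only term and all 4 libraries. Tests were two-sided, with Benjamini-Hochberg adjustment over 13840 genes. The common biological coefficient of variation was 7.45%. SEs came from the fold change and the F statistic. Scripts were tested on simulated data. Intervals of summed counts are exact 95% (Clopper-Pearson, scipy 1.17.1), corrected for library size, and cover counting error only, as does the floor of 3 counts. Replicates differed by more than sampling noise (chi-square per degree of freedom 5.17 in WT and 7.35 in the knockout), so all 4 were kept as separate samples.

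The 9 genes and all gene lists were chosen with earlier results of these data known, so no p-value is given for the 9. Genes named are the 9, Smarca1, list genes and neighbours called at an adjusted p under 0.05, and the most abundant of a list without calls. Named beyond this rule, after their values were seen, are Pou5f1, Pdgfrb, Pdgfd, Chic2, Thbd, Cubn, Foxa1, Foxa3, Fbn1, Lum, Prrx1, Prl3d1, Mesp1 and the visceral genes at or near 0. Alternatives were other scalings, filters, DESeq2 1.42.0, a replicate block, removal of the chromosome 8 shift and leaving out each library.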

Additional observations from a re-analysis of the deposited data

How the results depend on the processing

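With 2 libraries per genotype, the values of the 9 genes rest on few reads and counts of calls move with the setting. The 1274 genes called became 785 with DESeq2, 3471 with the replicate block, 662 with the chromosome 8 shift removed and 855 to 1966 when 1 library was left out. By the study's stricter rule 137 genes became 88 with DESeq2 and 223 with the block. The 5 primitive endoderm genes called became 1 with DESeq2 and 1 to 3 when 1 library was left out, and Pdgfra was called in each of these. They were 4 with the filter of at least 1 count in some library (Dab2 lost), with at least 10 counts in every library (Amn and Sox17 not fitted) and with the chromosome 8 shift removed (Dab2 lost). The 10 endoderm-programme genes called higher became 20 with the block and 6 to 15 when 1 library was left out, and the 4 called lower became 2 with the chromosome 8 shift removed. The 4 neighbours called became 2 with at least 1 count in some library, 7 with the block and 2 to 4 when 1 library was left out. Leaving out 1 library gave log2 changes of 0.93 to 1.49 for Gata6, 0.82 to 1.06 for Sox17, -0.084 to 0.88 for Sox7 and -0.98 to -0.41 for Hnf4a, and a log2 ratio of mean CPM of 0.51 to 1.68 for Foxa2. The cause of these shifts was not tested, other than the fewer samples or genes that a setting leaves. Over the 24 list genes called, 272 of 311 alternative values kept direction and side of the threshold, 39 kept direction alone, and 0 reversed, with 7 of the 39 under DESeq2 and 9 with the chromosome 8 shift removed. Over 10 further named genes (Smarca1, Pou5f1, Nanog, Pdgfrb, Cubn, Lrpap1 and the neighbours Kit, Gdap1l1, Exoc3l4 and Chic2), 101 of 128 values kept both, 7 lost a call (Kit and Exoc3l4), 12 gained one (Pdgfrb, Cubn and Lrpap1) and 8 changed sign without a call. Leaving out 1 library gave -0.019 to 0.15 for Pou5f1, -0.034 to 0.036 for Nanog and -0.10 to 0.074 for Chic2. Nanog was at -0.00075 with at least 1 count in some library, and Chic2 at 0.018 with upper-quartile scaling and 0.0030 with total counts. By the stricter rule the 1 primitive endoderm gene became 0 with DESeq2, 3 with the block and 0 to 2 when 1 library was left out. Replicate numbers are shared by the labels, but the deviations of same-numbered libraries correlated at 0.196 over only 2 pairs, which does not establish pairing. The replicate block called the same 5 of the 8 fitted genes, in a fit that raised the calls over all genes from 1274 to 3471. Where a library was left out, the lone library of its genotype was assumed to vary like the other genotype.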
